A study of Mus musculus with 6 samples.

Results

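The genes described here are the protein-coding genes that lie about 5 Mb to either side of Lyz2 on mouse chromosome 10, the locus that carries Cre in Lpcat3KOMac mice. They were chosen by position alone, as the genes of the count tables that lie in this window and are annotated as protein-coding in GENCODE M21, with no use of their levels. This gave 61 members out of 49315 genes, with a lowest start of 112060189 and a highest end of 122097371 on GRCm38. The window held 118 genes of any type, and 7 of these were not found in M21. Of the 61 members, 39 had enough counts to be tested.

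Lyz2 encodes lysozyme M, an enzyme that cleaves the peptidoglycan of bacterial walls and is among the most abundant products of macrophages and other myeloid cells. Lyz1, its close neighbour, encodes lysozyme P, the form known from Paneth cells of the intestine. In the LysMCre allele the Cre recombinase was inserted at the first coding ATG of Lyz2, so that the allele makes Cre in myeloid cells and no lysozyme M. Genes close to a targeted allele are inherited with it, and the counts carry no information on which allele or strain a read came from.

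RNA came from liver F4/80-positive cells, selected with magnetic beads and rich in Kupffer cells (liver-resident macrophages), with 1 library for each of 3 WT and 3 Lpcat3KOMac mice. All mice had been fed a high-fat diet (60% fat) for 16 weeks and were of C57BL/6N background. The labels give no age for these mice. WT mice were Lpcat3 fl/fl LysM +/+ littermates and Lpcat3KOMac mice were Lpcat3 fl/fl LysM Cre/+, so that both genotypes carried the floxed Lpcat3 gene and only Lpcat3KOMac mice carried Cre, on 1 of their Lyz2 alleles. Effects of the Cre insertion and of Lpcat3 loss cannot be told apart in this design. LysM drives Cre in myeloid cells in general, not only in Kupffer cells. Where 3 values are given for a genotype, they are those of mice 1, 2 and 3 in this order. Total counts per library lay between 44954224 and 71392812. Hepatocyte transcripts set 2 libraries apart: 5 of them together reached 20185 CPM (counts scaled to library size, here with TMM normalization) in WT mouse 1 and 12825 CPM in Lpcat3KOMac mouse 2, against 1755 to 4604 CPM in the other 4 mice.

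The promoters of the 2 lysozyme genes are shown because Cre was placed at the start codon that follows the first of them. They run from 250 bases before to 50 bases after the start site (RefSeq, GRCm38.p6, minus strand, Lyz2 at chr10:117282223-117282522 and Lyz1 at chr10:117292819-117293118). Capitals mark the start codon ATG and the letters ACTTCCT, the reverse complement of AGGAAGT, a core sequence of the kind bound by Ets-family factors such as PU.1.
Lyz2: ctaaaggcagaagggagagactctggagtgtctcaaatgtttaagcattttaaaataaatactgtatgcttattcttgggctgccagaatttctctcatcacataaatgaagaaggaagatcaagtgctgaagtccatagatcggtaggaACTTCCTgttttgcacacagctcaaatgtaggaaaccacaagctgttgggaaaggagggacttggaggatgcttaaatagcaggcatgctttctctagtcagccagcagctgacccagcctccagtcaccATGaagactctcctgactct
Lyz1: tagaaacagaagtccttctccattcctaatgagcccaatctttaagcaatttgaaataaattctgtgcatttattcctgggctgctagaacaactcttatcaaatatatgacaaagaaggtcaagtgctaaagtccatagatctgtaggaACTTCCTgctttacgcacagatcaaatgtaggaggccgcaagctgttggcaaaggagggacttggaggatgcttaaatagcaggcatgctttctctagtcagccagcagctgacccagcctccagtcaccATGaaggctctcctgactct
Without gaps the promoters were identical at 201 of 300 bases (67.0%), and at 99 of the last 100. Each held AGGAAGT once, searched on both strands, in the reverse direction and 100 bases before the start site. The same letters occurred in the promoters of 9.57% of 27025 genes and of 4 of the 50 members with a promoter in the table (8.0%).

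Bases 1 to 300 of the coding sequences, counted from the A of the start codon in the GENCODE transcripts, are shown because reads from so similar a pair can be assigned to the wrong gene. Capitals mark the bases that differ.
Lyz2: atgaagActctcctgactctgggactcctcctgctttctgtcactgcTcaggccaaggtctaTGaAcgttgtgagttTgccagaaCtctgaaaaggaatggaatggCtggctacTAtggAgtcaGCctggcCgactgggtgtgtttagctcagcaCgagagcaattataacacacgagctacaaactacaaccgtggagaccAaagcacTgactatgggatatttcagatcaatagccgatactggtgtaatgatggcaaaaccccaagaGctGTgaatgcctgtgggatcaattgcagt
Lyz1: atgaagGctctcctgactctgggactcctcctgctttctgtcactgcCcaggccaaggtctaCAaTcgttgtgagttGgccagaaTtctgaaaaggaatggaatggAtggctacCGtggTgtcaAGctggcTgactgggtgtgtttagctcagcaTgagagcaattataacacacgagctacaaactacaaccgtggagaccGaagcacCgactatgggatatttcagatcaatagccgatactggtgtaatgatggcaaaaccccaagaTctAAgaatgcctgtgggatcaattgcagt
The whole coding sequences were 447 bases long each and differed at 22 positions (95.1% identity), 20 of them in the stretch shown, with a longest identical run of 118 bases. Over the whole transcripts, 6.22% of the 75-base stretches of Lyz1 were also found in Lyz2, and 35.4% of its 30-base stretches. The handling of reads that match both genes is not given in the sources used here, and the Lyz1 counts are therefore uncertain.

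Lpcat3, the acyltransferase gene that was floxed (ENSMUSG00000004270, chromosome 6, 124663027 to 124704418), served as a check of the labels. Its level was 85.0, 66.2 and 61.2 CPM in WT and 19.5, 33.3 and 19.4 CPM in Lpcat3KOMac mice. Every Lpcat3KOMac mouse was below every WT mouse, and the mean was 34.0% of that in WT, at a log2 fold change of -1.56 with a standard error (SE) of 0.26. The edgeR p-value was 0.00119 before and 1.00 after Benjamini-Hochberg adjustment over 16134 genes, while DESeq2 gave an adjusted p-value of 0.00286. In edgeR no gene of the whole table (0.0%) passed the threshold of 0.05 after adjustment, while 426 genes (2.64%) had an unadjusted p-value under 0.05, and DESeq2 called 12 (0.0744%).

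Lyz2 (ENSMUSG00000069516, 117277334 to 117282274, minus strand) was lower in every Lpcat3KOMac mouse. The difference passed adjustment in DESeq2 but not in edgeR or limma-voom. Lyz2 was at 4695, 7659 and 6285 CPM in WT and 2452, 1533 and 2980.4 CPM in Lpcat3KOMac mice. The groups did not overlap, and the WT mean was 6213 ± 1483 CPM beside 2322 ± 732 CPM for Lpcat3KOMac (SD, n = 3 mice each). The log2 fold change was -1.42 (SE 0.30), which places Lpcat3KOMac cells at 37.4% of the WT level, with a 95% interval from 22.4% to 62.4%. The edgeR p-value was 0.00351 unadjusted and 1.00 adjusted, DESeq2 gave an adjusted p-value of 0.0485, and the two-sided exact permutation test gave 0.1, the smallest value that 3 mice against 3 allow. Lyz2 was the only tested member with at least a 2-fold change, a size reached by 1.59% of all genes tested.

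Lyz2 stood among the most abundant transcripts of the WT libraries. Ranked by CPM per kilobase of exon, it was the 8th, 2nd and 5th gene in WT and the 20th, 32nd and 16th in Lpcat3KOMac mice. Its counts made up 55.3%, 64.3% and 61.9% of all counts on the 61 members in WT and 38.2%, 29.4% and 42.9% in Lpcat3KOMac mice. With both lysozyme genes left out, the members together were at 3782, 4233 and 3864 CPM in WT and 3946, 3666 and 3948 CPM in Lpcat3KOMac mice. These sums overlapped between genotypes, unlike Lyz2 itself.

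Lyz1 (ENSMUSG00000069515, 117287796 to 117292868, minus strand), whose start site lies 10.6 kb from that of Lyz2, was low throughout. It was at 6.97, 10.2 and 12.4 CPM in WT and at 26.1, 8.47 and 18.8 CPM in Lpcat3KOMac mice. Lpcat3KOMac mouse 2 lay within the WT range and the other 2 lay above it. The mean was 9.87 CPM (SD 2.74) in WT and 17.8 CPM (SD 8.86) in Lpcat3KOMac mice. The log2 fold change was 0.85 (SE 0.44), and the unadjusted p-value of 0.106 in edgeR did not pass 0.05. Without Lpcat3KOMac mouse 2 the log2 fold change was 1.21, with an unadjusted edgeR p-value of 0.00873. Leaving out the mouse within the WT range made the absence of overlap certain there, and 14.1% of all genes tested did not overlap in that fit. Without Lpcat3KOMac mouse 1 the log2 fold change was 0.51, with an edgeR p-value of 0.284. Lyz1 counts were 0.148%, 0.133% and 0.198% of Lyz2 counts in WT and 1.06%, 0.552% and 0.632% in Lpcat3KOMac mice, a share whose denominator was itself lower in every Lpcat3KOMac mouse, so that it is no separate evidence on Lyz1. The third lysozyme gene of the cluster, 9530003J23Rik (Lyzf1 among the RefSeq synonyms), had 1 count in 1 library.

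**Figure D1:**
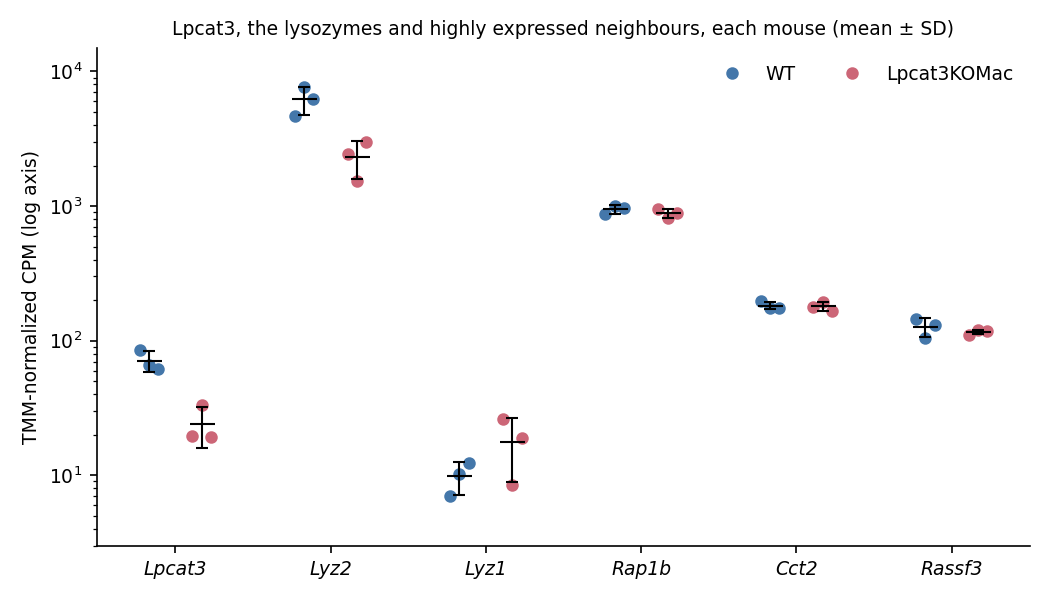
TMM-normalized CPM (log axis) of Lpcat3, the lysozyme genes and 3 other members of high level per kilobase in each of 3 WT and 3 Lpcat3KOMac mice. Points are mice and bars the mean ± SD. Lpcat3 and Lyz2 were lower in all 3 Lpcat3KOMac mice, with Lyz2 between 1533 and 2980.4 CPM against 4695 to 7659 CPM in WT, while Rap1b, Cct2 and Rassf3 overlapped.

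Lyz2 is made by several myeloid cell types, and the transcripts of these cells were read beside it. All 7 Kupffer cell transcripts had a negative log2 fold change, from -0.46 to -0.18, as did 59.9% of all genes tested. Their summed level was 28922 to 40413 CPM in WT and 22746 to 31605 CPM in Lpcat3KOMac mice. Among them Clec4f, a lectin receptor of Kupffer cells, did not overlap, at a log2 fold change of -0.44 (SE 0.17). Of 8 neutrophil transcripts 5 could be tested, with sums of 80.8 to 157 CPM in WT and 80.0 to 143 CPM in Lpcat3KOMac mice, and the defining marker Ly6g had at most 3 counts in any library. Most of that sum was Csf3r (-0.17), while the other 4 tested neutrophil transcripts were low and had log2 fold changes from 0.80 to 1.63, among them S100a8 at 0.99, higher without overlap. The 7 transcripts of monocytes and recruited macrophages summed to 110 to 383 CPM in WT and 312 to 430 CPM in Lpcat3KOMac mice, with log2 fold changes from -0.51 (Plac8) to 1.70 (Chil3). Of these 7, Chil3 and F13a1 (1.05) were higher at an unadjusted edgeR p-value under 0.05, as were 1.07% of all genes tested. Chil3 and Gpnmb (1.17, SE 0.68) were higher without overlap, as were 2.29% of all genes tested. Chil3 was low, at 1.12, 1.04 and 2.12 CPM in WT and 8.77, 2.43 and 2.70 CPM in Lpcat3KOMac mice. The value of Lyz2, -1.42, lay outside the range of the Kupffer cell values. Of these, Timd4 (-0.46, SE 0.69) and Marco (-0.27, SE 1.04) varied widely between mice. In these bulk libraries fewer cells of a type and less RNA per cell cannot be told apart, and the part of the cell mixture in the Lyz2 value was not tested.

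Over the whole window, Lyz2 included, edgeR called no tested member after adjustment, 5 of 39 (12.8%) had an unadjusted p-value under 0.05 against 2.64% of all genes tested (1.57% lower and 1.07% higher), and DESeq2 called Lyz2 alone. Those 5 were Lyz2, Yeats4 and Tmbim4, which were lower, and Ptprb and Srgap1, which were higher. The groups did not overlap for 5 members (12.8%), namely Lyz2, Yeats4, Tmbim4 and Atxn7l3b on the lower side and Srgap1 on the higher, against 7.49% of all genes tested (5.2% lower and 2.29% higher). Neighbouring genes are not independent of each other, and no test of the list as such was made. The median log2 fold change of the 37 tested members other than Lyz2 and Lyz1 was -0.03, beside -0.04 over all genes tested, and their median absolute value was 0.09 beside 0.12. Of these 37, 25 were below 0 (67.6%, against 59.9% of all genes tested).

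The intervals show how large a difference these libraries could have missed. For 25 of the 37 the 95% interval lay wholly inside a 1.5-fold change in either direction (67.6%, against 50.5% of all protein-coding genes tested), and for 27 it lay inside 2-fold. The widest intervals were those of Trhde and Lgr5, each near the floor in some mice. The 609 tested protein-coding genes on the rest of chromosome 10 had a median of -0.04, and 7.55% of them did not overlap between genotypes. Around Lpcat3 on chromosome 6, where both genotypes carried the floxed allele, 118 genes other than Lpcat3 itself had a median of -0.05 and 6.78% did not overlap.

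Distance from Lyz2 ordered the differences little. Among the members other than the lysozymes the median log2 fold change was -0.02 for the 8 within 0.5 Mb, -0.03 for the 5 from 0.5 to 1 Mb, -0.07 for the 9 from 1 to 2.5 Mb and -0.03 for the 15 farther out. The 14 on the side of lower coordinates had a median of -0.08 and the 23 on the other side -0.02. Values below 0 made up 7 of the 8 within 0.5 Mb (87.5%), and 60.0%, 66.7% and 60.0% of the 3 groups farther out. They made up 78.6% of the 14 and 60.9% of the 23, against 59.9% of all genes tested. Over the 37 genes, all measured in the same 6 libraries, the Spearman correlation of distance was 0.12 with the absolute log2 fold change and 0.04 with the signed one. Mean level was more closely tied to the absolute log2 fold change (Spearman -0.35), the lower genes having the larger values. Among the 28 with a mean of at least 10 CPM that correlation was 0.07, and that of distance 0.20.

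**Figure D2:**
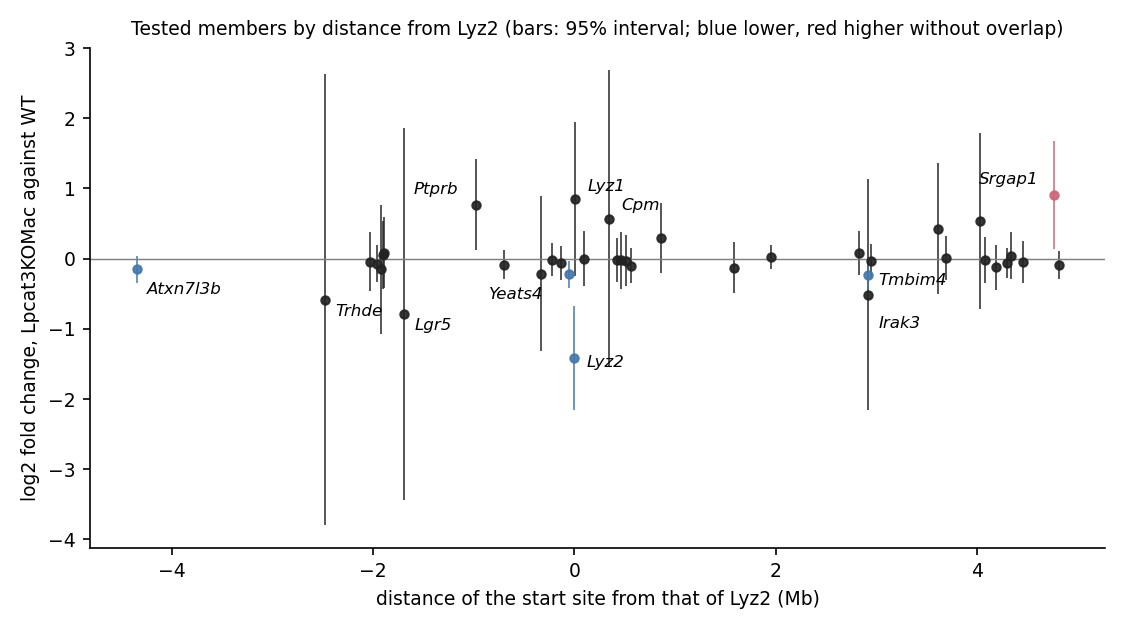
Log2 fold change of Lpcat3KOMac against WT with its 95% interval for the 39 tested members, by the distance of their start site from that of Lyz2 in Mb. Blue points were lower and the red point higher without overlap between genotypes, and black points overlapped. Lyz2 at -1.42 lies apart from its neighbours, most of which sit close to 0 at every distance.

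The genes within 1 Mb of Lyz2 included several of general cell function, and most of these differed by less than the spread between mice. Yeats4 (ENSMUSG00000020171, 117215142 to 117224507), a chromatin reader that binds acetylated histones, lies closest among the tested genes other than Lyz1, at 57.8 kb. It was at 40.4, 43.2 and 40.9 CPM in WT and at 34.8, 37.5 and 34.3 CPM in Lpcat3KOMac mice. The groups did not overlap, and the log2 fold change was -0.22 (SE 0.08) with an unadjusted p-value of 0.0302 in edgeR. With libraries scaled by their totals alone the value was -0.13, the p-value 0.219, and the groups overlapped. Cpsf6, a cleavage factor of 3' end processing at 97.7 kb on the other side, was at 52.6, 59.7 and 69.3 CPM in WT and 68.3, 50.03 and 63.2 CPM in Lpcat3KOMac mice, with a mean of 99.9% of WT. Frs2, an adaptor of fibroblast growth factor receptors at 134 kb, was at 35.9, 39.8 and 33.0 CPM in WT and 36.4, 32.8 and 34.9 CPM in Lpcat3KOMac mice, and Cct2, a subunit of the TRiC chaperonin at 218 kb, at 196, 175 and 176 CPM against 179, 195 and 168 CPM. Their ranges overlapped.

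Farther out within 1 Mb, Mdm2, the ubiquitin ligase that restrains p53, was at 76.1, 83.0 and 96.9 CPM in WT and 93.8, 77.0 and 82.4 CPM in Lpcat3KOMac mice, with a mean of 98.9% of WT. Rap1b, a small GTPase of cell adhesion and the second member by level per kilobase, was at 874, 1009 and 965 CPM in WT and 948, 815 and 891 CPM in Lpcat3KOMac mice. Its log2 fold change was -0.10 (SE 0.10). Nup107 of the nuclear pore (-0.03), the CCR4-NOT subunit Cnot2 (-0.08) and the nucleotide sugar transporter family member Slc35e3 (-0.02) overlapped as well. So did Mdm1, at 3.46, 3.00 and 4.18 CPM in WT and 4.48, 3.92 and 4.65 CPM in Lpcat3KOMac mice, at a log2 fold change of 0.29 (SE 0.20).

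Ptprb (ENSMUSG00000020154, 116301374 to 116389538, plus strand), the receptor tyrosine phosphatase VE-PTP of endothelial cells, lies 0.98 Mb from Lyz2. It was at 83.3, 68.2 and 93.6 CPM in WT and at 170, 156 and 90.4 CPM in Lpcat3KOMac mice. The high values were those of Lpcat3KOMac mice 1 and 2, and mouse 3 lay within the WT range. The log2 fold change was 0.77 (SE 0.26), with an unadjusted p-value of 0.0277 in edgeR, and it was 0.64 without Lpcat3KOMac mouse 1. Other endothelial transcripts were high in the same mice. Kdr, the VEGF receptor, was at 68.6, 62.3 and 95.7 CPM in WT and at 169, 131 and 91.5 CPM in Lpcat3KOMac mice, and Oit3 was at 53.5, 28.0 and 44.0 CPM against 82.9, 78.9 and 45.8 CPM. The whole list of 6 sinusoidal endothelial transcripts summed to 849 to 948 CPM in WT and 926 to 1146 CPM in Lpcat3KOMac mice, with Stab2 (0.02) and Pecam1 (-0.24) not sharing the difference. Their part in the Ptprb value was not tested.

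Of the members without overlap, 3 lay more than 2.5 Mb from Lyz2. Tmbim4 (ENSMUSG00000020225, 120201590 to 120224917, plus strand), a Golgi membrane protein of the Bax inhibitor family, lies 2.92 Mb away. It was at 79.0, 80.0 and 74.0 CPM in WT and at 64.6, 61.8 and 72.0 CPM in Lpcat3KOMac mice, at a log2 fold change of -0.23 (SE 0.09) and an unadjusted p-value of 0.040 in edgeR. All Lpcat3KOMac mice were lower, mouse 3 by a small margin. The genotypes overlapped with library totals alone (-0.14), with the length offset (-0.19) and without Lpcat3KOMac mouse 1 (-0.18) or 2 (-0.17), and 192 exonic bases are shared with Irak3 on the opposite strand. Atxn7l3b (ENSMUSG00000074748, 112925430 to 112929001), at 4.35 Mb on the other side, was at 109, 102 and 96.2 CPM in WT and at 91.1, 95.6 and 89.4 CPM in Lpcat3KOMac mice. The closest pair of mice differed by less than 1 CPM there, and the log2 fold change was -0.15 (SE 0.08). Here too the genotypes overlapped under some alternatives, among them DESeq2's size factors. Srgap1 (ENSMUSG00000020121, 121780991 to 122047315), a GTPase-activating protein of Slit-Robo signalling at 4.77 Mb, was low, at 1.34, 1.02 and 1.79 CPM in WT and 3.20, 2.53 and 2.06 CPM in Lpcat3KOMac mice. Every Lpcat3KOMac mouse was higher, at a log2 fold change of 0.91 (SE 0.31) and an unadjusted p-value of 0.0278 in edgeR.

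**Figure D3:**
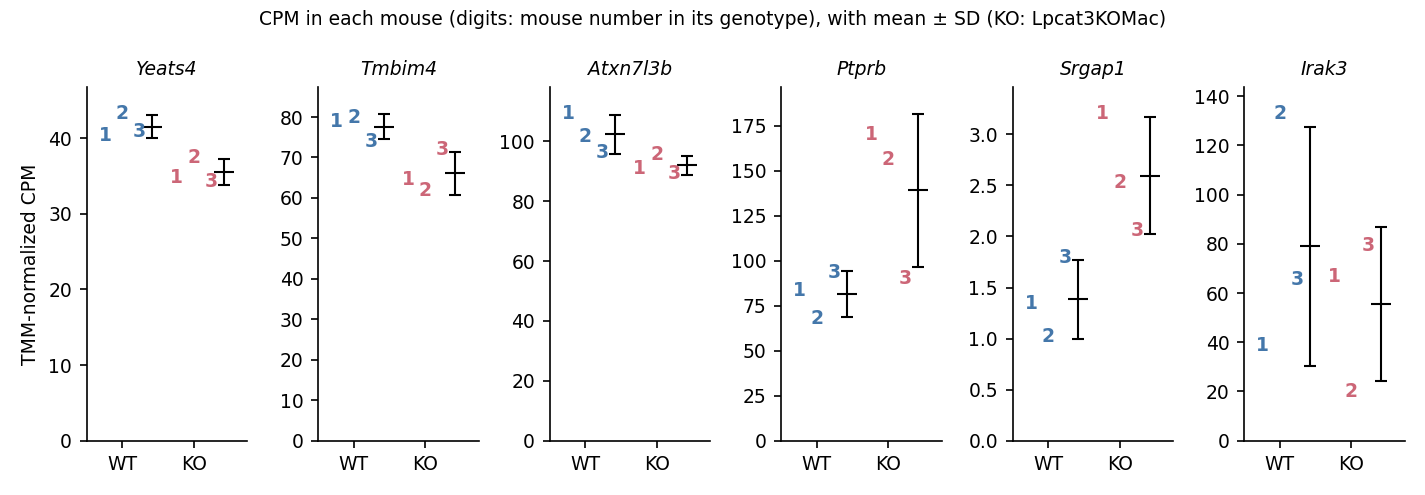
TMM-normalized CPM of 6 members in each mouse, with axes from 0. Coloured digits are the mouse numbers within each genotype and bars the mean ± SD of 3 mice. Yeats4, Tmbim4 and Atxn7l3b were lower and Srgap1 higher without overlap, Ptprb was high in Lpcat3KOMac mice 1 and 2 only, and Irak3 varied most between mice, from 19.9 to 133 CPM.

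Members of innate immune signalling are of interest in macrophages, and 2 of 5 were tested. Irak3, the pseudokinase IRAK-M that dampens Toll-like receptor signalling in macrophages, was at 38.8, 133 and 65.4 CPM in WT and at 66.9, 19.9 and 79.3 CPM in Lpcat3KOMac mice. The extremes were WT mouse 2 and Lpcat3KOMac mouse 2, and the ranges overlapped. The log2 fold change was -0.51 (SE 0.66), and it was 0.09 without WT mouse 2. Tbk1, the kinase that activates IRF3 downstream of STING and MAVS, was at 85.1, 91.9 and 91.6 CPM in WT and 93.7, 81.5 and 83.3 CPM in Lpcat3KOMac mice. The genes around these kinases overlapped likewise. None of 7 genes of IRAK and MyD88 signalling and none of 8 tested partners and targets of TBK1 had an unadjusted p-value under 0.05, with log2 fold changes of -0.19 to 0.09 and -0.16 to 0.10. Of the cytokine members, Ifng had at most 10 counts in a library, and Il22 and Iltifb had none.

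All 7 members of p53 and growth control were tested, with log2 fold changes from -0.22 (Yeats4) to 0.03 (Cand1). Cand1, which exchanges the substrate receptors of cullin ligases, had the narrowest range of the tested members, at 78.7, 80.4 and 77.2 CPM in WT and 77.7, 83.7 and 80.0 CPM in Lpcat3KOMac mice. Dyrk2, a kinase that can phosphorylate p53, was at 51.0, 70.1 and 54.2 CPM in WT and 55.2, 48.2 and 56.6 CPM in Lpcat3KOMac mice, and Rassf3, a member of the Ras association domain family, at 144, 105 and 132 CPM against 111, 120 and 118 CPM. Among 10 MDM2 partners and p53 targets elsewhere in the genome the median was -0.002, and only Gadd45a, a stress-induced growth arrest gene, had an unadjusted p-value under 0.05, at a log2 fold change of 0.82 (SE 0.28).

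Vesicle traffic, protein folding and the lysosome took in 7 members, all tested, with Tmbim4 the one that did not overlap. Rab21, a GTPase of early endosomes, and Tbc1d15, a GTPase-activating protein for Rab7, had log2 fold changes of -0.07 and -0.04. Tbc1d30 (0.54) and Rab3ip (-0.21) varied more between mice, and both were highest in WT mouse 1 and Lpcat3KOMac mouse 2, the hepatocyte-rich libraries. Without WT mouse 1 the value of Rab3ip was 0.37 and that of Tbc1d30 was 1.18. Tbc1d30 then did not overlap, like 32.2% of all genes tested without that mouse. Leaving out WT mouse 2 put Tbc1d30 at 0.23.

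The 11 members of RNA and nuclear processes included 10 tested genes, none of which had an unadjusted p-value under 0.05, with log2 fold changes from -0.08 (Cnot2) to 0.29 (Mdm1). Helb, a DNA helicase, Lemd3, an inner nuclear membrane protein, and Xpot, the tRNA exporter, were at 0.08, 0.02 and 0.04. Hmga2, an architectural chromatin protein known from fetal tissue, had 5 to 11 counts per library and was not tested. Thap2, Llph and Zfc3h1 lay between -0.03 and 0.09.

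Surface receptors, peptidases and channels, a group that also took in Srgap1 and Slc35e3, were the members of most scattered levels. Of the 12, 6 were tested, with log2 fold changes from -0.79 (Lgr5) to 0.91 (Srgap1). The next highest was Ptprb at 0.77. Lgr5, the R-spondin receptor that marks stem cells and pericentral hepatocytes, was at 3.29, 0.399 and 0.153 CPM in WT and 0.844, 0.617 and 0.786 CPM in Lpcat3KOMac mice. WT mouse 1 decided its value, -0.79, which was 1.42 without that mouse. Cpm, a carboxypeptidase, was at 1.35, 0.180 and 0.306 CPM in WT and 1.07, 1.31 and 0.382 CPM in Lpcat3KOMac mice. Its log2 fold change of 0.57 was 1.92 without WT mouse 1 and 0.14 without WT mouse 2. Trhde, which degrades thyrotropin-releasing hormone, was at 1.06 CPM or less in every mouse. The untested members were the potassium channel genes Kcnc2 and Kcnmb4, the phosphatase gene Ptprr, the tetraspanin Tspan8, the chloride channel gene Best3 and the Wnt inhibitor Wif1, each with at most 12 counts in any library.

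Of the 5 tested members outside these groups, Msrb3, a methionine sulfoxide reductase, was at 18.4, 8.13 and 11.4 CPM in WT and 19.9, 20.2 and 10.9 CPM in Lpcat3KOMac mice, at a log2 fold change of 0.43 (SE 0.38). It was 0.80 without WT mouse 1 and 0.19 without WT mouse 2. Tmem19 was at 98.2, 42.9 and 41.6 CPM in WT and 49.9, 64.6 and 49.9 CPM in Lpcat3KOMac mice. Its log2 fold change was -0.15, and 0.37 without WT mouse 1. BC048403 and Rxylt1, which adds xylose to dystroglycan, were at -0.05 and -0.09. WT mouse 1 and Lpcat3KOMac mouse 2 were the 2 highest libraries for 7 tested members (17.9%, against 21.8% of all genes tested) and the 2 lowest for 10 (25.6%, against 22.9%). Among the latter were Lyz1, Irak3, Mdm2 and Rap1b.

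**Figure D4:**
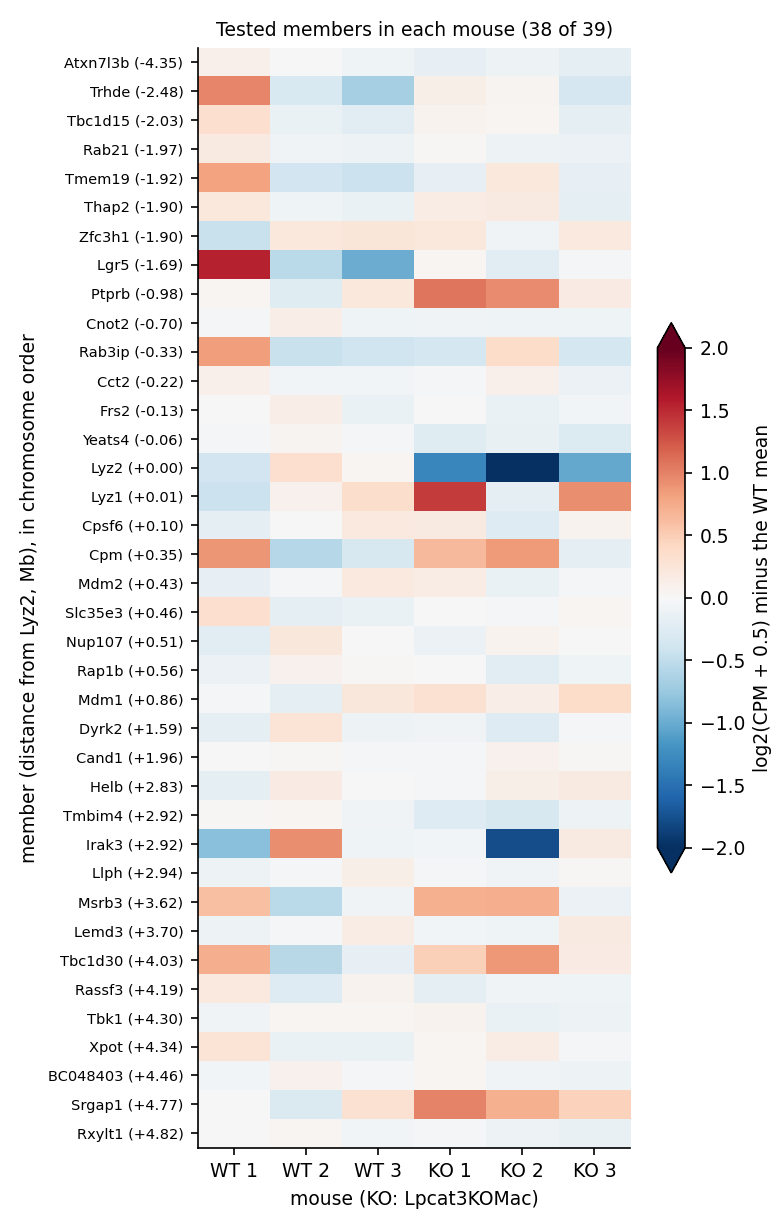
Level of 38 of the 39 tested members in each mouse, as log2(CPM + 0.5) minus the mean of the 3 WT mice, with members in chromosome order and their distance from Lyz2 in Mb. Colours run from -2 (blue) to 2 (red). Lyz2 is blue in all 3 Lpcat3KOMac mice, and no block of neighbouring genes shares a colour of that depth. A shift as small as that of Yeats4 (-0.22) is close to white on this scale, so the map cannot show whether neighbours share a small shift. Lgr5, Trhde, Tmem19 and Rab3ip stand out in WT mouse 1.

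The 22 members that were not tested were low in all libraries. For 9 no read was counted, among them Tph2, the serotonin-synthesizing enzyme of neurons, and Lrrc10, a heart gene, and for 5 no library exceeded 3 counts, the floor taken here, so that no difference was detectable at this depth. The remaining 8 exceeded the floor but not the filter. Grip1, a scaffold protein of glutamate receptors, had 16, 6 and 6 counts in WT and 4, 4 and 1 in Lpcat3KOMac mice, and Tspan8 had 12, 0 and 2 counts against 9, 12 and 5.

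Outside the window, other granule proteins of macrophages and neutrophils gave a comparison for Lyz2. Of 14 such genes 9 were tested. Chil3 (1.70) and S100a8 (0.99), both also on the cell type lists above, were higher at an unadjusted edgeR p-value under 0.05. The same held for 1.07% of all genes tested. Both were low, S100a8 at 0.719 to 2.19 CPM and Chil3 at 1.04 to 8.77 CPM. The lysosomal cathepsin S gene Ctss was at 2734, 2969 and 3101 CPM in WT and 2570.4, 2628 and 2322 CPM in Lpcat3KOMac mice. It was lower without overlap, as were 5.2% of all genes tested, at a log2 fold change of -0.23 (SE 0.10). Ctsb and Ctsd, the other cathepsin genes tested on this list, overlapped, at log2 fold changes of -0.04 and 0.14. Of 8 other genes of the lysozyme family, Lyzl4 alone was tested, at most at 0.603 CPM, and 5 had no counts.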

How the data were processed

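The deposited files hold the read counts of each gene, 1 file a mouse, which the authors had not normalized. Per the labels, reads were trimmed with Trimmomatic 0.36, aligned with STAR 2.5.2b and counted with featureCounts (Subread 1.5.2) on GRCm38. The poly-A kit was NEBNext Ultra, and the strand setting is not given in the sources used here, so that genes overlapping on opposite strands are uncertain. Of 49315 gene identifiers, 48970 were found in GENCODE M21. The members, gene lists and rule for named genes (Lpcat3, lysozymes, tested members within 1 Mb, those without overlap, the 5 smallest p-values, the 5 highest CPM per kilobase, role lists) were chosen with earlier results of these data known.

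Counts were fitted with edgeR 4.0.16 in R 4.3.3 (TMM, expression filter with minimum count 10, robust quasi-likelihood test, genotype only) over 16134 genes, with Benjamini-Hochberg adjustment. The SE of a log2 fold change is its size over the square root of F. Of the tested members, 1 is not reported here by name. Alternatives included DESeq2 1.42.0 and limma-voom (limma 3.58.1). The code was tested on simulated data with less spread between libraries than in these data (common biological coefficient of variation 0.39). That test does not measure how many differences would be recovered here. Whether mice of 1 genotype shared a litter or preparation is not given, and p-values set each difference against the spread between these libraries.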

Additional observations from a re-analysis of the deposited data

How the results depend on the processing

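Lyz2 kept its direction in all 17 alternatives (DESeq2's size factors, library totals, no filter, a stricter filter of 10 counts in each library, DESeq2, limma-voom, no robust dispersion, replicate block, hepatocyte covariate, length offset, leaving out each mouse or both hepatocyte-rich mice), as did Lpcat3 and Lyz1. Leaving out 1 mouse moved Lyz2 between -1.61 and -1.17, Lpcat3 between -1.85 and -1.39, Lyz1 between 0.51 and 1.21, and the members' median between -0.05 and -0.01. DESeq2 put Lyz2 at -1.40 (adjusted p-value 0.0485) and Lpcat3 at -1.55 (0.00286), and called 12 genes, of which 1 was a member. Of 39 tested members, 14 kept their direction in every alternative that could be fitted and 25 reversed in at least 1.

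Members with an unadjusted p-value under 0.05 numbered 3 with library totals alone (1.97% of all genes) and 3 with the length offset (2.03%). Within 2.5 Mb of Lyz2 they were 3 of 24 tested, beside 2.64% of all genes. They numbered 10 with the hepatocyte covariate, where 9.3% of all genes did, and from 1 to 6 without 1 mouse. They were 6 without WT mouse 1 (12.3% of all genes), 2 without WT mouse 2 (1.37%) and 3 without WT mouse 3 (3.28%). Without Lpcat3KOMac mouse 1 they were 1 (1.09%), without mouse 2 they were 3 (1.48%) and without mouse 3 they were 4 (2.31%). With library totals alone the members' median was 0.063 and that of all genes 0.057. Members without overlap numbered 3 with the length offset (6.3% of all genes) and 2 within 2.5 Mb (24 tested, beside 7.49% of all genes). Without 1 mouse they numbered 6 to 13. They were 13 without WT mouse 1 (32.2% of all genes), 6 without WT mouse 2 (12.4%) and 9 without WT mouse 3 (16.4%). Leaving out Lpcat3KOMac mouse 1, 2 or 3 gave 6 (10.3%), 7 (14.1%) and 6 (14.4%). Without both hepatocyte-rich mice, an alternative chosen after seeing the data, they numbered 16 (41.2% of all genes). No adjusted p-value of a member passed 0.05 there, and Lyz2 was at -1.36 (0.079).

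Same-numbered mice of the 2 genotypes had correlations of -0.30, -0.60 and 0.36, which gave no sign of pairing by number. The highest correlation, 0.67, was that of WT mouse 1 with Lpcat3KOMac mouse 2, the hepatocyte-rich libraries. With that difference present, these values cannot settle whether mice were paired. With the replicate block 1 member, Lyz2 at -1.44, had an unadjusted edgeR p-value under 0.05, as did 0.855% of all genes tested. Lpcat3 was then at -1.59 and Lyz1 at 0.74.

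Of 61 members 22 could not be tested, and the intervals of the low genes Trhde, Lgr5 and Cpm, and of Irak3, which varied between mice, exceed 2-fold in both directions.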
